A study of Mus musculus with 2 samples.

Results

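The genes described here encode homeobox and related transcription factors outside the Hox clusters: the Pax, LIM class (Lhx, Lmx1 and Isl), Nkx, Dlx, sine oculis-related (Six2, Six4, Six5 and their relatives), Irx, Msx, Otx and Pitx, En, Emx, Gbx, Evx, Barhl and Barx, Alx and Prrx, and POU families. They were picked by gene symbol, and Otx2 and Pou3f1 were left out. The rule found 55 of the 13620 genes in the deposited table. Poly(A) RNA was sequenced from C57BL/6J mouse embryonic stem (ES) cells of genotype Fbxl10 T/T (1 library) and WT (1 library). Fbxl10 is an older symbol of Kdm2b, and the labels do not say what the T allele alters. Cells of both genotypes were cultured with serum and LIF on inactivated embryonic fibroblasts, which were removed by attachment to plastic before RNA was taken. The comparison asks how RNA levels of these genes in Fbxl10 T/T cells differed from those in WT cells.

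Homeobox factors bind DNA through the homeodomain, a helical domain, and each family acts in the patterning of particular tissues of the embryo, such as parts of the brain, the sensory organs, the limbs, the heart or the kidney. In ES cells most of these genes have CpG island promoters that are held at low expression by Polycomb complexes. KDM2B (FBXL10) recognises unmethylated CpG through its CXXC domain and brings the variant Polycomb complex PRC1.1 to such islands. Within the set, some Pax proteins rely on a paired domain and lack a full homeodomain. Six6os1 was also taken up by the rule, because its symbol refers to its neighbour Six6, but it encodes a protein of the meiotic synaptonemal complex and not a homeobox factor.

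In the listed genes there were 27109446 reads for Fbxl10 T/T and 21198574 for WT. Levels are normalised CPM, that is, reads per 1000000 of an effective library size. Without replicates the genotypes could not be tested, and "higher" and "lower" describe these 2 libraries. A gene was counted as measured when either library had 1 CPM or more, and as higher or lower when the log2 ratio of Fbxl10 T/T over WT, with 0.5 CPM added to both values, reached 2-fold. Folds printed for single genes are ratios of CPM without that addition, with exact binomial (Clopper-Pearson) 95% intervals from the reads. These cover counting error only, and a fold can pass 2 where the ratio with 0.5 CPM added does not. In bulk RNA, fewer cells of a type and less RNA per cell cannot be told apart. Kdm2b itself had 10.6 CPM in Fbxl10 T/T and 102.5 CPM in WT. Markers of 3 other cell types and of ES cells moved too. All 8 extraembryonic endoderm markers were higher, with sums of 32629 CPM in Fbxl10 T/T and 3150 CPM in WT. Among ES cell markers 6 of 8 were lower, with sums of 996 CPM in Fbxl10 T/T and 5231 CPM in WT. Of 12 fibroblast markers 11 were measured, 4 were lower and none was higher, with sums of 678 CPM in Fbxl10 T/T and 1369 CPM in WT. Of 8 neural ectoderm markers 4 were measured and 2 were lower, with sums of 108 CPM in Fbxl10 T/T and 90.2 CPM in WT, and 1 of the 4 had 0 reads in Fbxl10 T/T. The part of these cell types in the results below was not tested.

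Of the 52 measured members, 40 (76.9%) were lower in Fbxl10 T/T, 3 (5.77%) were higher and 9 lay in between. Over all 13512 measured genes, 20.6% were lower and 14.8% were higher. The table's own minimum bears on the members' counts, since 34 of the 55 members reached it in WT only. Of the 21 that reached it in both libraries, 12 (57.1%) were lower and 3 (14.3%) were higher, with a median log2 ratio of -1.25. Among the 11700 measured genes that reached it in both libraries, 12.7% were lower and 15.9% were higher, so the share of higher members was near that of all such genes. The median log2 ratio was -1.69 over the 52 measured members and 0.02 over all measured genes, and with Lhx5, which had no read in Fbxl10 T/T, set to the limit of 3 reads it was again -1.69. Below WT by any amount were 47 of the 52. With a minimum of 5 CPM in either library, 15 of 22 members were lower and 3 were higher, against 15.8% and 16.6% of all genes at that minimum. At a 4-fold threshold 18 members were lower and 1 was higher, against 9.10% and 3.84% of all measured genes. The median level of the measured members was 0.709 CPM in Fbxl10 T/T and 4.06 CPM in WT.

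**Figure D1:**
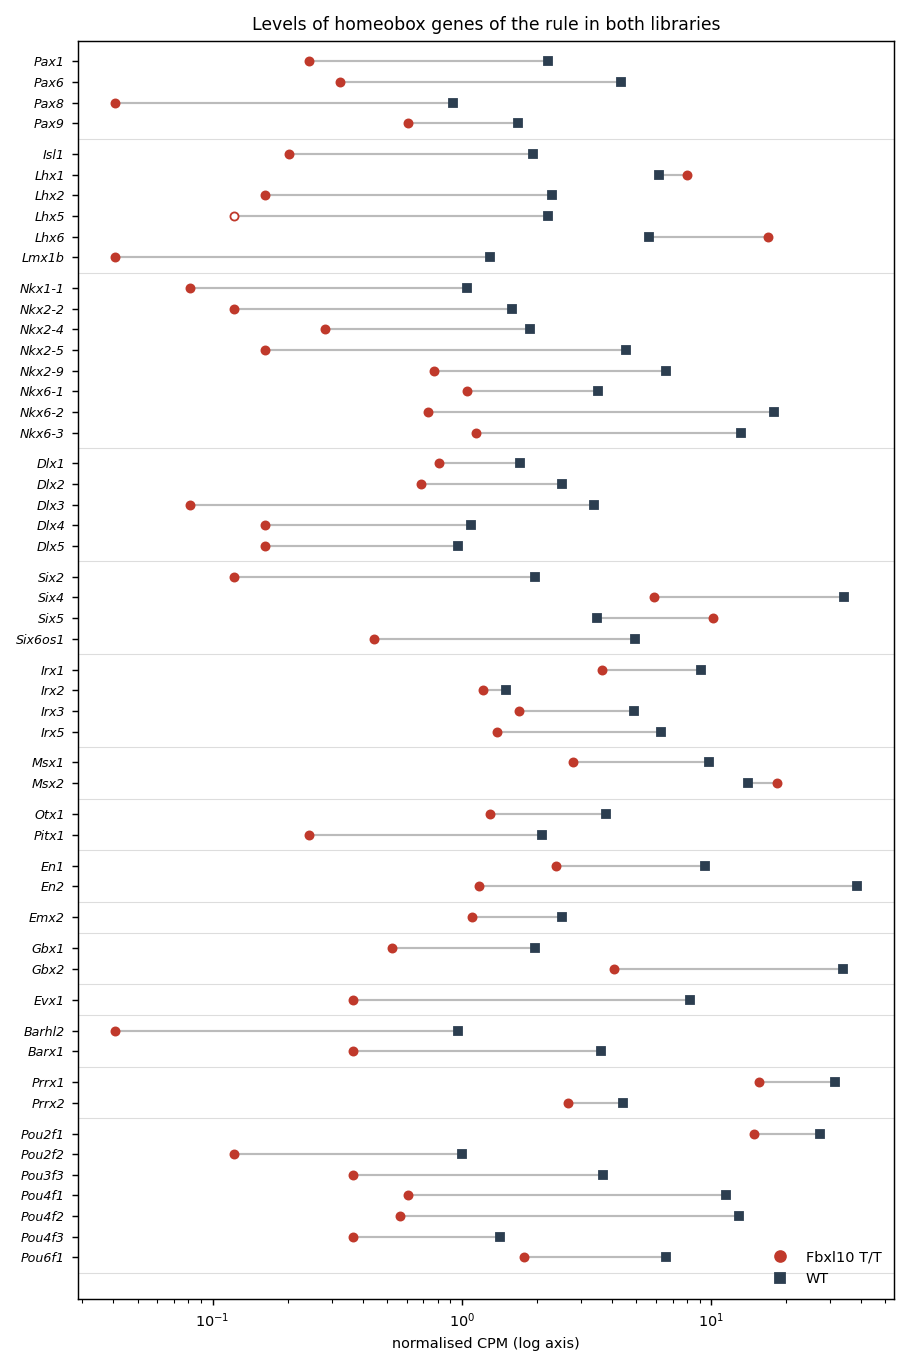
Normalised CPM (log axis) of the genes of the rule, but for a few not reported here, in Fbxl10 T/T (circles) and WT (squares), 1 library each, grouped by family. The open circle is Lhx5, with 0 reads in Fbxl10 T/T, drawn at the limit of 3 reads. In Lhx1, Lhx6, Six5 and Msx2 the Fbxl10 T/T circle lies to the right of the WT square.

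The minimum was at least 28 reads in Fbxl10 T/T or 22 in WT for every gene in the table, and no member reached it in Fbxl10 T/T only. A member listed through WT alone had under 28 reads in Fbxl10 T/T by definition, and so could not lie far above its WT level. This limit also applies to the counts by family below, beside 20.6% lower and 14.8% higher over all measured genes. Genes of low mean level were also lower more often throughout the table. With a mean of both libraries below 2.5 CPM, 22 of 26 members were lower, against 48.5% of all measured genes at that level, and none was higher, against 6.29%. Because 25 of these 26 members were listed through WT only, which favours lower values, these counts are not read as a result about the members. From 2.5 to below 10 CPM, where 6 of 18 members were listed through WT only, 15 were lower, against 34.4%, and 1 was higher, against 12.3%. At 10 CPM or more, where no member was listed through WT only, 3 of 8 members were lower, against 10.6%, and 2 were higher, against 17.3%. The splits by listing and by mean level were added after the data were seen and describe these libraries.

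**Figure D2:**
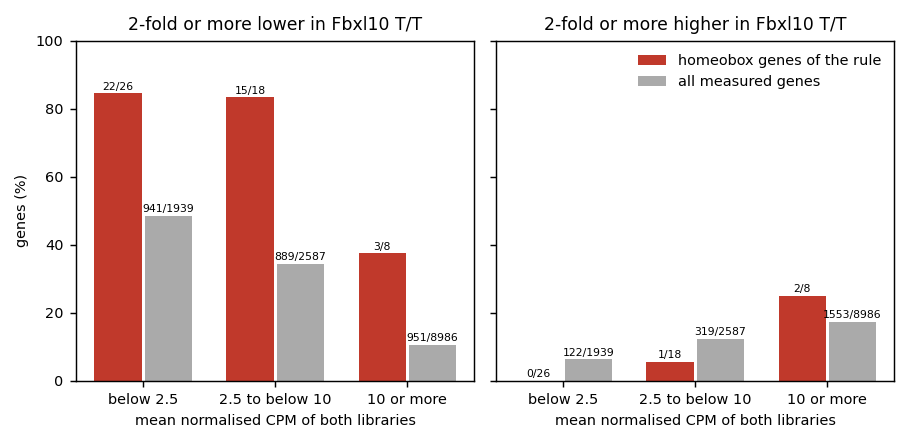
Percentage of genes 2-fold or more lower (left panel) or higher (right panel) in Fbxl10 T/T, for the genes of the rule (red) and all measured genes (grey), in 3 ranges of the mean normalised CPM of both libraries, with counts above the bars. The share lower was 84.6%, 83.3% and 37.5% for the genes of the rule, and 48.5%, 34.4% and 10.6% for all measured genes. In the lowest range 25 of the 26 genes of the rule were listed through WT only.

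**Figure D3:**
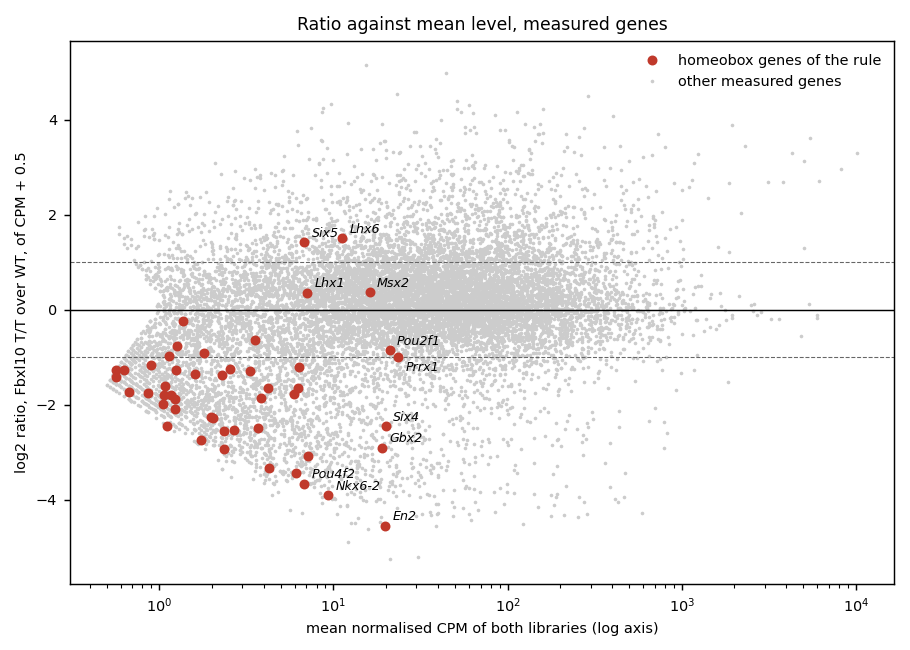
Log2 ratio of Fbxl10 T/T over WT (CPM + 0.5) against the mean normalised CPM of both libraries (log axis), for measured genes of the rule (red, but for a few not reported here) and other measured genes (grey). Dashed lines mark 2-fold. Most red points lie below the lower line at means under 10 CPM, and Lhx6 and Six5, at log2 ratios of 1.51 and 1.42, lie above the upper one.

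The promoter sequences of the members were examined because the CXXC domain of KDM2B binds unmethylated CpG. RefSeq windows (GRCm38.p6) of 300 bases, from 250 before to 50 after a gene's start, matched 39 of the 55 members by symbol, with 46 windows in all. Among those not matched were Dlx3, Dlx4, Dlx5, En2, Gbx1, Irx1, Irx5, Lhx5, Nkx6-3, Otx1, Pitx1, Pou4f3 and Six6os1. The motif counted was CG, which reads the same on both strands. Its count per window was 22.5 at the median of the 44 windows of measured members, 20 over windows of all measured genes that matched, and 7 over all 32851 windows. A ratio of observed to expected CpG above 0.6 was found in 35 of these 44 windows (79.5%), against 69.1% of windows of all measured genes and 35.8% of all windows. At least 1 CG was present in 94.6% of all windows. Among members, 25 of 29 windows of lower genes and 2 of 4 windows of higher genes passed that ratio, against 53.6% of windows of all lower genes and 61.8% of windows of all higher genes. The higher members with a window were Lhx6, with 3 windows, and Six5. Pou4f1 had the most CpG of any member with a window. Below are the windows of Gbx2, Nkx6-2 and Pou4f1, which were lower in Fbxl10 T/T, and of Six5, which was higher, 5′ to 3′ with CG in capitals. They lie at chr1:89931127-89931426 on the minus strand with 27 CpG (Gbx2), chr7:139582748-139583047 on the minus strand with 32 CpG (Nkx6-2), chr14:104467950-104468249 on the minus strand with 57 CpG (Pou4f1) and chr7:19094294-19094593 on the plus strand with 17 CpG (Six5).
Gbx2: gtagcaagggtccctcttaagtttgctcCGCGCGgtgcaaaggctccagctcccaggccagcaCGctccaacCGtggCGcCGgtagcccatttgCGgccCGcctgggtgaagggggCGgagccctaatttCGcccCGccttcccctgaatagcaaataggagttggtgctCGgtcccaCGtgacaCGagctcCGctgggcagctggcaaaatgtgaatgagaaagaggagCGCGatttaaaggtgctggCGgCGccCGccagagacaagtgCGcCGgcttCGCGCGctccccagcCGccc
Nkx6-2: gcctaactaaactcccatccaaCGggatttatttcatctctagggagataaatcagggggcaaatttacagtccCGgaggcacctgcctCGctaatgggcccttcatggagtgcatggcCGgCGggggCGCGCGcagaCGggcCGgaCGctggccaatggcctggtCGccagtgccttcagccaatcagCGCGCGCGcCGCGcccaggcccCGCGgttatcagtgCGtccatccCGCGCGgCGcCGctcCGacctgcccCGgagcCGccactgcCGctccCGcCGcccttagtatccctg
Pou4f1: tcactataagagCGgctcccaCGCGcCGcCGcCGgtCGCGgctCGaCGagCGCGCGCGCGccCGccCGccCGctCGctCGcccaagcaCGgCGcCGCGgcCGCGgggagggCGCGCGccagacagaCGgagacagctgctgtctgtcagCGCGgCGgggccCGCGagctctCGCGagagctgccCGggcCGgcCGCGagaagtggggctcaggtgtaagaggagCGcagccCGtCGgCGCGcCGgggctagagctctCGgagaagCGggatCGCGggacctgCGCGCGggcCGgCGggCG
Six5: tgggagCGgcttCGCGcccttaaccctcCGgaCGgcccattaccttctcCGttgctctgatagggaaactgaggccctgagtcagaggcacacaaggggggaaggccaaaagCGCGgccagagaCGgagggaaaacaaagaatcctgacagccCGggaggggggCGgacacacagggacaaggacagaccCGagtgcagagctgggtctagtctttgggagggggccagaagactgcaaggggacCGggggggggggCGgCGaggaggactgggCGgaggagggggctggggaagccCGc
CpG runs along the whole of the Pou4f1 window and gathers in the later part of that of Nkx6-2, while that of Six5 has the fewest of these 4. Its ratio of observed to expected CpG was 0.559, below 0.6, against 0.861 for Gbx2, 0.972 for Nkx6-2 and 1.24 for Pou4f1. These 4 windows do not stand for all members. The windows of Lhx6, also higher, were at 0.579, 0.643 and 0.791. Lower genes below 0.6 were Pou2f2 (0.424), Nkx2-5 (0.466), Pou4f2 (0.563) and Nkx2-9 (0.571). For members in between, 8 of 11 windows passed 0.6, against 76.2% of windows of all genes in between.

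The engrailed, Gbx, Evx and Emx genes, which pattern the axis of the early brain and the primitive streak, were lower in 5 of 6 cases. En2, a gene of the midbrain and hindbrain on chromosome 5 from 28492236 to 28498706 (mm9), had 1.17 CPM (29 reads) in Fbxl10 T/T and 38.6 CPM (921 reads) in WT. This was 32.8-fold lower (interval 22.7 to 49.3) and the smallest log2 ratio of the members. For WT over T/T, its log2 ratio in the authors' deposited table is 5.02. Its paralogue En1, which also acts in the limb, had 2.39 CPM (59 reads) in Fbxl10 T/T and 9.42 CPM (225 reads) in WT, 3.94-fold lower (2.95 to 5.34), an interval that lies apart from that of En2. Gbx2, which helps to place the boundary of midbrain and hindbrain and is also expressed in naive ES cells, had 4.09 CPM (101 reads) in Fbxl10 T/T and 33.9 CPM (809 reads) in WT. It was 8.28-fold lower (6.73 to 10.3) and lies on chromosome 1 from 91824559 to 91827751 (mm9). Evx1, a gene of the primitive streak and of spinal interneurons, had 0.365 CPM (9 reads) in Fbxl10 T/T and 8.21 CPM (196 reads) in WT, 22.5-fold lower (11.6 to 49.97). Gbx1 (0.527 CPM in Fbxl10 T/T and 1.97 CPM in WT) was lower, and Emx2, a gene of the cerebral cortex and urogenital system, lay in between at 1.09 CPM in Fbxl10 T/T and 2.51 CPM in WT.

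All 9 measured Nkx genes were lower in Fbxl10 T/T, against 20.6% of all measured genes. Their summed level was 4.70 CPM in Fbxl10 T/T and 52.0 CPM in WT, 11.1-fold lower. All but Nkx6-3 were listed through WT only, which favours lower values, so this count is not read as a result about the family. Per kilobase of merged exons in GENCODE M21, the highest WT levels of the family were those of Nkx6-2 (9.40 CPM per kilobase), Nkx6-3 (5.91) and Nkx2-9 (5.201). Nkx6-2, which acts in the ventral spinal cord and in oligodendrocytes, had 0.729 CPM (18 reads) in Fbxl10 T/T and 17.9 CPM (428 reads) in WT, 24.6-fold lower (15.4 to 41.9). In GENCODE M21 its exons overlap those of Inpp5a on the opposite strand, and Inpp5a was at 81.0 CPM in Fbxl10 T/T and 58.5 CPM in WT. Nkx6-3, a gene of the stomach, had 1.13 CPM (28 reads) in Fbxl10 T/T and 13.2 CPM (316 reads) in WT, 11.7-fold lower (7.92 to 17.8). Nkx6-1, which acts in motor neurons and pancreatic beta cells, had 1.05 CPM in Fbxl10 T/T and 3.52 CPM in WT. Among the Nkx2 genes, Nkx2-9, expressed beside the floor plate of the neural tube, had 0.770 CPM (19 reads) in Fbxl10 T/T and 6.57 CPM (157 reads) in WT, 8.54-fold lower (5.29 to 14.6). Nkx2-5, the cardiac factor, was at 0.162 CPM (4 reads) in Fbxl10 T/T and 4.56 CPM (109 reads) in WT. Nkx2-2, Nkx2-4 and Nkx1-1 were between 0.0810 and 0.284 CPM in Fbxl10 T/T and between 1.05 and 1.88 CPM in WT, and the interval listed for Nkx1-1 spans only 180 bases.

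Of the 7 measured POU genes, 6 were lower and Pou2f1 lay in between. Pou4f1 and Pou4f2, factors of sensory neurons and retinal ganglion cells, had 0.608 CPM (15 reads) and 0.567 CPM (14 reads) in Fbxl10 T/T, against 11.5 CPM (275 reads) and 13.0 CPM (310 reads) in WT. They were 19.0-fold (11.3 to 34.3) and 22.9-fold (13.4 to 42.4) lower, intervals that overlap. Pou4f3, the factor of inner ear hair cells, was at 0.365 CPM in Fbxl10 T/T and 1.42 CPM in WT, and Pou3f3, of the brain and kidney, at 0.365 CPM in Fbxl10 T/T and 3.68 CPM in WT. The widely expressed Pou2f1 (OCT1) was nearest to its WT level, with 14.8 CPM (366 reads) in Fbxl10 T/T and 27.2 CPM (650 reads) in WT, 1.84-fold lower (1.61 to 2.09). Pou2f2, a factor of B cells, was at 0.122 CPM (3 reads) in Fbxl10 T/T and 1.005 CPM (24 reads) in WT. Pou6f1 had 1.78 CPM (44 reads) in Fbxl10 T/T and 6.62 CPM (158 reads) in WT, 3.71-fold lower (2.64 to 5.31).

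In the sine oculis-related family, which acts with EYA proteins in muscle, placodes and kidney, 4 of 5 entries were lower and Six5 was higher. Six4 had 5.87 CPM (145 reads) in Fbxl10 T/T and 34.2 CPM (817 reads) in WT, 5.82-fold lower (4.88 to 6.998). Six2, the factor of nephron progenitors, was at 0.122 CPM (3 reads) in Fbxl10 T/T and 1.97 CPM (47 reads) in WT. Six5 had 10.1 CPM (250 reads) in Fbxl10 T/T and 3.48 CPM (83 reads) in WT, a ratio of 2.91 (2.26 to 3.78). The meiotic gene Six6os1 was at 0.446 CPM in Fbxl10 T/T and 4.94 CPM in WT. Without it, 39 of 51 members were lower.

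Of the Otx and Pitx genes, Pitx1, of the hindlimb, was lower, with 0.243 CPM (6 reads) in Fbxl10 T/T and 2.09 CPM (50 reads) in WT, 8.61-fold lower. Otx1, of the forebrain, had 1.30 CPM (32 reads) in Fbxl10 T/T and 3.77 CPM (90 reads) in WT, 2.91-fold lower, while Otx2, outside the rule, was at 10.1 CPM in Fbxl10 T/T and 11.3 CPM in WT. Per kilobase of merged exons in GENCODE M21, the levels of Msx2 and Lhx6 in Fbxl10 T/T were 5.60 and 3.52 CPM per kilobase. In WT the highest levels per kilobase of the members were those of Gbx2 at 15.6 and En2 at 10.9.

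**Figure D4:**
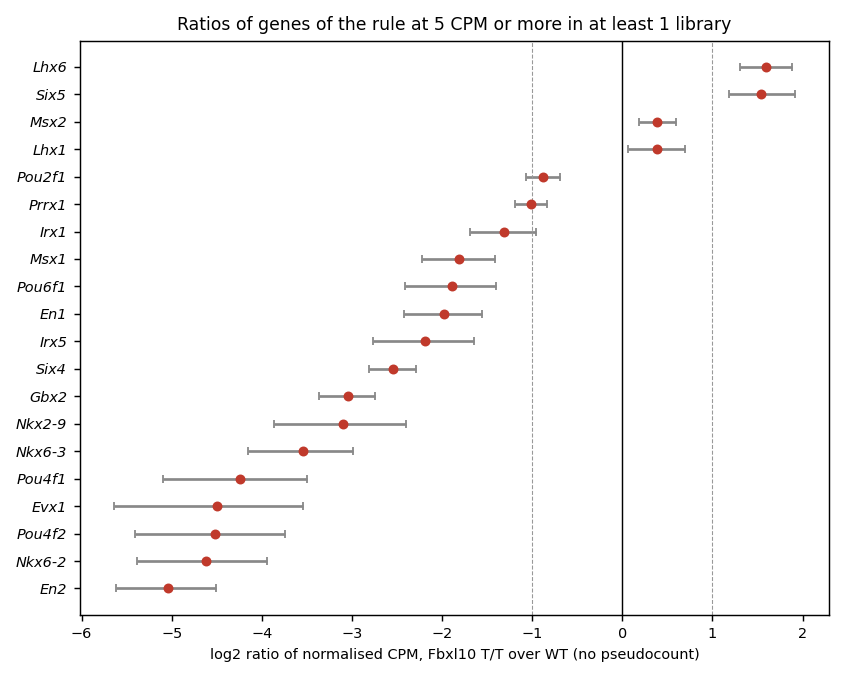
Log2 ratio of normalised CPM, Fbxl10 T/T over WT without a pseudocount, for genes of the rule that reached 5 CPM in either library, but for a few not reported here. Bars are exact binomial 95% intervals (counting error only, 1 library per genotype) and dashed lines mark 2-fold. Of the genes plotted, only Lhx6, Six5, Msx2 and Lhx1 lie to the right of 0, at ratios of 3.01, 2.91, 1.31 and 1.30.

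The LIM class was mixed, with 4 of 6 measured genes lower and 1 higher. Lhx6, known for forebrain interneurons, had 16.9 CPM (417 reads) in Fbxl10 T/T and 5.61 CPM (134 reads) in WT, a ratio of 3.01 (2.47 to 3.69). Lhx1, which acts in the anterior visceral endoderm, the head organiser and the kidney, had 8.02 CPM (198 reads) in Fbxl10 T/T and 6.16 CPM (147 reads) in WT, a ratio of 1.30 (1.05 to 1.62). The other 4 are regulators of forebrain, eye, limb and motor neurons and had at most 5 reads in Fbxl10 T/T. Lhx5 had 0 reads in Fbxl10 T/T and 53 in WT (2.22 CPM), at least 18.3-fold lower when Fbxl10 T/T is set to 3 reads. Lhx2, Isl1 and Lmx1b were between 0.0405 and 0.203 CPM in Fbxl10 T/T and between 1.30 and 2.30 CPM in WT.

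The Msx genes, which respond to BMP signals in the limb and skull, differed from each other. Msx2 had 18.3 CPM (453 reads) in Fbxl10 T/T and 14.0 CPM (335 reads) in WT, a ratio of 1.31 (1.13 to 1.51). Msx1 had 2.80 CPM (69 reads) in Fbxl10 T/T and 9.80 CPM (234 reads) in WT, 3.51-fold lower (2.67 to 4.65). Prrx1 and Prrx2, genes of limb and craniofacial mesenchyme that fibroblasts also express, lay in between. Prrx1 had 15.6 CPM (385 reads) in Fbxl10 T/T and 31.5 CPM (752 reads) in WT, 2.02-fold lower (1.78 to 2.29), and Prrx2 had 2.67 CPM in Fbxl10 T/T and 4.44 CPM in WT. The summed fibroblast markers, given above, were 2.02-fold lower, but single markers differed. Most of the WT sum came from Fbln2 (546 CPM) and Fstl1 (372 CPM), which had 237 and 79.5 CPM in Fbxl10 T/T. Among the 11 measured, 4 were lower and 7 lay in between. Col1a1 and Postn, 2 of those in between, stood above WT at ratios of 1.15 and 1.37. The part of feeder cell RNA in the Prrx levels was not tested.

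In the Irx family, which patterns the neural plate and heart, 3 of 4 genes were lower. Irx5 had 1.38 CPM (34 reads) in Fbxl10 T/T and 6.28 CPM (150 reads) in WT, 4.56-fold lower (3.13 to 6.83). Irx1 had 3.65 CPM (90 reads) in Fbxl10 T/T and 9.09 CPM (217 reads) in WT, 2.49-fold lower (1.94 to 3.22). Irx3 had 1.70 CPM in Fbxl10 T/T and 4.90 CPM in WT. Irx2, with 30 reads in Fbxl10 T/T and 36 in WT, was the member whose counting interval held a ratio of 1 (0.480 to 1.35). Of the other 51 measured members, 46 had an interval below 1 and 5 above it. Over all 13620 genes, the exact binomial test with Benjamini-Hochberg adjustment, a related count, called 5580 lower and 5792 higher. Since 34 of the 55 members were listed through WT only, which favours intervals below 1, the 46 and 5 are not read as a result about the members.

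The Pax, Dlx, Barx and Barhl genes stayed under 5 CPM in both libraries. Pax6, a regulator of eye and neural development, had 0.324 CPM (8 reads) in Fbxl10 T/T and 4.35 CPM (104 reads) in WT, 13.4-fold lower (6.57 to 31.9). Pax1 and Pax9, of the sclerotome and pharyngeal pouches, had 0.243 CPM and 0.608 CPM in Fbxl10 T/T and 2.22 CPM and 1.67 CPM in WT, and Pax9 lay in between. Of 4 measured Dlx genes, which act in the ventral forebrain and branchial arches, 3 were lower. Dlx3, also a gene of skin and placenta, had 2 reads in Fbxl10 T/T and 81 in WT, a 41.9-fold lower level with a wide interval (11.2 to 352). Dlx1, Dlx2 and Dlx4 were between 0.162 and 0.810 CPM in Fbxl10 T/T and between 1.09 and 2.51 CPM in WT. Barx1, of the stomach mesenchyme, had 0.365 CPM in Fbxl10 T/T and 3.60 CPM in WT. Barhl2, Pax8 and Dlx5 stayed below 1 CPM in both libraries, with 1, 1 and 4 reads in Fbxl10 T/T and 23, 22 and 23 in WT.

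Members that neighbour each other in the genome were compared within 100 kb by the intervals of the deposited table (mm9). Both genes were lower in the pair Dlx3 and Dlx4 (log2 ratios of -2.74 and -1.26) and in the pair Nkx2-4 and Nkx2-2 (-1.61 and -1.75). In the pairs Dlx1 with Dlx2 and Nkx2-9 with Pax9, Dlx1 (-0.76) and Pax9 (-0.97) lay in between and Dlx2 (-1.34) and Nkx2-9 (-2.48) were lower. All genes of these pairs were listed through WT only, which favours lower values. Genes so listed have under 28 reads in Fbxl10 T/T by definition, so the pairs are not read as a result about neighbours. Exons of 15 members overlap those of another GENCODE M21 gene on the opposite strand, such as Evx1 with Evx1os, Emx2 with Emx2os, Nkx2-2 with Nkx2-2os and Gbx2 with D130058E05Rik. The strand setting of the counting is not given in the sources used here, so reads of such partners may be included.

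Of 23 genes that encode partner proteins of these factors 13 were measured. Of these 3 were lower (23.1%, against 20.6% of all measured genes), 1 was higher (7.69%, against 14.8%) and 9 lay in between, with a median log2 ratio of -0.36. The corepressor gene Tle4 had 40.1 CPM in Fbxl10 T/T and 194 CPM in WT, 4.85-fold lower (4.52 to 5.195), while its paralogue Tle1 had 138 CPM in Fbxl10 T/T and 42.8 CPM in WT, a ratio of 3.23 (3.01 to 3.47). Ldb1, the adaptor of LIM factors, had 111 CPM in Fbxl10 T/T and 164 CPM in WT, and its competitor Lmo4 had 102 CPM in Fbxl10 T/T and 73.2 CPM in WT. Lmo2 (0.446 CPM in Fbxl10 T/T and 1.93 CPM in WT) was lower. Tle3, Aes, Ssbp3, Ssbp4 and Eya3, which encodes a partner of these sine oculis-related factors, were all within 2-fold of WT.

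Of 62 other non-Hox homeobox genes outside the rule 31 were measured, 18 of them lower (58.1%, against 20.6% of all measured genes), 6 higher (19.4%, against 14.8%) and 7 in between, with a median log2 ratio of -1.48. The table's minimum bears on these counts too. Most of the lower genes, such as Cdx1 with 21 reads in Fbxl10 T/T, were listed through WT only, which favours lower values. In the other direction, Hmx2, with 14 reads in WT, was listed through Fbxl10 T/T only. Zfhx2 and the caudal gene Cdx1 were at 1.13 CPM and 0.851 CPM in Fbxl10 T/T and at 35.8 CPM and 23.1 CPM in WT. The pluripotency factor gene Pou5f1 had 257 CPM in Fbxl10 T/T and 1328 CPM in WT, and Zfhx3 had 7.94 CPM in Fbxl10 T/T and 23.2 CPM in WT. Among the higher genes, Hopx had 19.4 CPM in Fbxl10 T/T and 3.39 CPM in WT, and Hhex, a gene of endoderm, had 38.5 CPM in Fbxl10 T/T and 18.01 CPM in WT. Hesx1, Hmx2 and Prox1, named after their values were seen, had ratios of 3.81, 5.94 and 2.45. Cux1 and Hmbox1 were within 2-fold of WT.

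**Figure D5:**
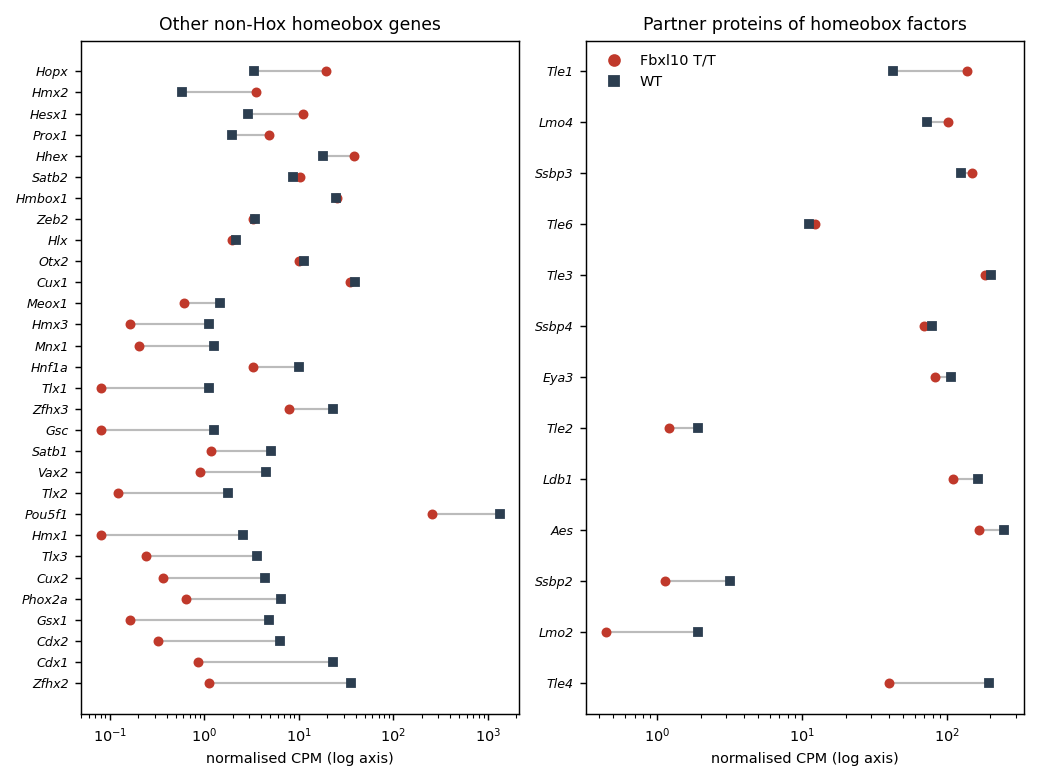
Normalised CPM (log axis) in Fbxl10 T/T (circles) and WT (squares), 1 library each, of homeobox genes outside the rule (left panel, but for a few not reported here) and 13 genes of partner proteins (right panel), ordered by log2 ratio. Hopx, at 19.4 CPM in Fbxl10 T/T and 3.39 CPM in WT, heads the left panel, and Tle1 heads the right one.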

How the data were processed

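Per the submitters' processing notes, reads were processed with TopHat 1.4.1, HTSeq 0.5.3p9 and edgeR on build mm9. What each tool did, which annotation was used and whether counting used strand is not given in the sources used here. Per the file headers, the deposited signal is CPM in each library, and a log2 ratio of WT over T/T by the authors stands beside it. All signal values (100%) were whole multiples of 1 step per library within 0.01 reads, so 27109446 reads (Fbxl10 T/T) and 21198574 reads (WT) were recovered. The signal columns sum to 1098136 and 887645 over genes, so the deposited signal is normalised CPM. Of 24706 rows, 11086 were repeats and were used once. Where both libraries had at least 5 CPM, recomputed ratios were within 0.0028 of the authors' log2 ratios.

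Genes with 1 CPM or more in either library were described by the log2 ratio of Fbxl10 T/T over WT with 0.5 CPM added, and by a 2-fold rule. With 1 library per genotype no test was made. As an alternative that compares the libraries only, edgeR 4.0.16 (R 4.3.3) on the recovered reads, with an assumed coefficient of variation of 0.2 and Benjamini-Hochberg adjustment, found 2060 higher and 2861 lower genes (adjusted p up to 0.05). An exact binomial test of the reads with the same adjustment called 5792 higher and 5580 lower. Intervals and the limit of 3 reads (0.122 CPM in Fbxl10 T/T and 0.126 CPM in WT) cover counting error only, since reads are not independent molecules. Other alternatives were pseudocounts, minimum levels, fold thresholds and rescaling.

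The members and lists were chosen with earlier results of these data known. By the rule every member is a named gene, but some genes are not reported here singly, though they stay in the counts. Members at 5 CPM or more in a library are given with reads. From the partner and other homeobox lists, up to 2 genes at either end and those at 20 CPM or more are named. The cell type markers were listed in the same way. The 2-fold rule, the intervals and edgeR were also tested on reads simulated for 13620 genes (Fbxl10 T/T over WT, counting error only). The table's minimum was not applied to these reads, and the other steps were not simulated. The 2-fold rule found 100% of 100 genes raised 4-fold, 97% of 100 lowered 4-fold and 0 of 12927 unchanged genes. The true ratio lay in 94.5% of the intervals. With edgeR, 93% of the changed genes were found in the right direction and 0 unchanged genes were called. Promoter windows (RefSeq, GRCm38.p6) were matched by symbol, and exon lengths and overlaps (GENCODE M21, GRCm38) by Ensembl gene ID. Neither was joined to the mm9 coordinates. The tools were scipy 1.17.1, pandas 2.3.3, numpy 2.4.6 and matplotlib 3.10.9 under Python 3.11.15.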

Additional observations from a re-analysis of the deposited data

How the results depend on the processing

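No paired analysis was possible because each genotype had 1 library, and leaving out a library was not possible either. The 40 lower and 3 higher members became 15 and 3 with a minimum of 5 CPM, which keeps 22 members (15.8% of all genes lower and 16.6% higher at this setting). They became 12 and 3 of the 21 members at the table's minimum in both libraries, an alternative added after the data were seen that removes the 31 measured members listed through WT only. They became 18 and 1 at a 4-fold threshold, where 9.10% of all measured genes were lower and 3.84% higher. Under the other alternatives the lower members numbered 34 (pseudocount of 1 CPM) to 46 (1.5-fold threshold) and the higher members 3. Of all measured genes, 18.3% were lower and 13.9% higher with that pseudocount, and 28.7% and 26.5% at that threshold. With rescaling to the upper quartile, 44 members were lower and 3 higher, against 24.1% and 10.7% of all measured genes. Adding the binomial test left 40 and 3, and edgeR with an assumed variation called 44 members lower and 3 higher, among them the same 40 and 3, beside 2861 and 2060 of all 13620 genes. The median log2 ratio of the members ranged from -2.34 to -1.25 with pseudocounts of 0.1 and 1 CPM, and was -1.25 over the 21. The median of the LIM class turned to 0.93 with a minimum of 5 CPM, since only Lhx1 and Lhx6 remained. Rescaling to the upper quartile lowered the Fbxl10 T/T levels by 0.24 on the log2 scale. With 0.5 CPM added, this moved the members' median to -1.81, low genes less than others. It took Prrx1 (-1.22), Pax9 (-1.10), Pou2f1 (-1.08) and Emx2 (-1.08) past 2-fold and put Msx2 at 0.14. Prrx1 (-1.01) also passed 2-fold with rescaling to a median log2 ratio of 0. Genes with few reads have wide intervals, and 9 members had under 4 reads in Fbxl10 T/T.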
